A study of Mus musculus with 12 samples.

Results

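The transcripts described here are those of 10 genes of the major histocompatibility complex (MHC) class I pathway, chosen by gene name as H2-K1, H2-D1, H2-T23, B2m, Tap1, Tap2, Tapbp, Psmb8, Psmb9 and Psmb10 out of 35275 genes in the count table. The table holds poly(A) RNA-seq read counts of kidney tissue from 12 mice, 4 in each of 3 groups, all on a C57BL/6J background and 6 months old. WT mice carried wild-type Pkd1. RC/RC mice were homozygous for a hypomorphic knock-in allele of Pkd1, a slowly progressing model of autosomal dominant polycystic kidney disease. RC/RC:Casp1KO mice carried the same Pkd1 allele and were also homozygous for 1 of several small TALEN-made deletions in Casp1, the gene of the inflammasome protease caspase-1, a germline change present in every cell. The methods describe the WT animals as a C57BL/6J stock kept beside the RC colony, so WT and RC/RC mice are not described as littermates. Each group held 2 males and 2 females, as the paper states, but the columns of the table carry no sex and no replicate number. Sex was not used in any fit and nothing is given by sex. Mice are named A to D within a group only to tell them apart.

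Nucleated cells display peptides from their own proteins on class I molecules. The proteasome cuts the peptides, the transporter made of TAP1 and TAP2 carries them into the endoplasmic reticulum, tapasin (Tapbp) holds the transporter and the empty class I molecule together, and a heavy chain (H2-K, H2-D) with the light chain beta2-microglobulin (B2m) takes the peptide to the surface for CD8 T cells. Interferons raise most of these genes together and add 3 inducible catalytic subunits, encoded by Psmb8, Psmb9 and Psmb10, that replace the constitutive subunits encoded by Psmb5, Psmb6 and Psmb7 to form the immunoproteasome. Class I genes are known to be read through an upstream region that holds a kB-type element, an interferon-response element and an SXY module bound by a complex with the transactivator NLRC5.

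Promoter sequence from RefSeq (build GRCm38.p6, 250 bases before to 50 after the annotated start) was matched by symbol for 9 of the 10 genes. Those of the 2 classical heavy chains, of the light chain they share, and of the nonclassical heavy chain H2-T23 are shown because the first 3 genes were higher in RC/RC kidneys and H2-T23 was not. They lie at chr17:34000284-34000583 (minus strand) for H2-K1, chr17:35262844-35263143 (plus) for H2-D1, chr2:122147437-122147736 (plus) for B2m and chr17:36032652-36032951 (minus) for H2-T23, and each is printed 5′ to 3′ along its gene. Capitals mark matches on either strand to a kB-type motif (GGG, any 2 bases, then TTCCC), an interferon-response type motif (GAANNGAAA), and a pair of TGACG and ATTGG exactly 20 bases apart, as in the X2 and Y boxes of the SXY module. The spacing was taken from these sequences.
H2-K1: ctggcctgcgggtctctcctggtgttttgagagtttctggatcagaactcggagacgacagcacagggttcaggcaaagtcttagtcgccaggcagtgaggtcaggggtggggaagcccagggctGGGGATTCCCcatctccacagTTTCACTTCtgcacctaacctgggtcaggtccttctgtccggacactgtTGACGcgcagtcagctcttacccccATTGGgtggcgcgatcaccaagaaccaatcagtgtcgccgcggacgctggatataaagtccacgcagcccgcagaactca
H2-D1: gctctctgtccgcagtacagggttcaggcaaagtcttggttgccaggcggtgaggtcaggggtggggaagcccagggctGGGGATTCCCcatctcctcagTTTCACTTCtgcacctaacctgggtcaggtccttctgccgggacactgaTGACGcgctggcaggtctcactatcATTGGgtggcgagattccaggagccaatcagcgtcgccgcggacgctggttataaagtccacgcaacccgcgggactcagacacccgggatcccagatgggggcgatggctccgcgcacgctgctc
B2m: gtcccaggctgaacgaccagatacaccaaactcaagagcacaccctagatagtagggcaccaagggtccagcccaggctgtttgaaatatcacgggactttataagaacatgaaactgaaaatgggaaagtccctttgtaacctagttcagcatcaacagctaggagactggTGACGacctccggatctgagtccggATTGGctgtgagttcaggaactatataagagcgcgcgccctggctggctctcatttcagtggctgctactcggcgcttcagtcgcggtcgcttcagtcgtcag
H2-T23: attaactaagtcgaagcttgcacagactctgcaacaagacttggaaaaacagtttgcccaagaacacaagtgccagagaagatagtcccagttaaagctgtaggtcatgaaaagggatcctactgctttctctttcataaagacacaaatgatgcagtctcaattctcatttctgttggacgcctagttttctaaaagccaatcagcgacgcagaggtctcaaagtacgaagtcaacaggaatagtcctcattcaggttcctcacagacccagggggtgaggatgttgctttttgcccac
H2-K1 and H2-D1 held all 3 motifs in the same order and without overlap, the interferon-response type on the opposite strand, with the TGACG of the pair beginning at position -55 in H2-K1 and -101 in H2-D1 relative to the annotated start. By these exact patterns, B2m held the TGACG and ATTGG pair alone of the 3, at -78, and H2-T23 held none of them. Tapbp, Psmb8, Psmb9 and Psmb10, also called higher in RC/RC, held none of them either. The RefSeq starts used lie 3579, 474 and 434 bases from the gene starts in the count table for Tapbp, Psmb8 and Psmb9. For H2-D1 and H2-T23 it was 364 and 154 bases, so sequence at the counted starts may lie outside the windows. H2-M3, a heavy chain outside the 10, held the pair and an interferon-response type match and was not called in any comparison. The pair was in 3 of the 9 windows. It was in 0.0944% of all 32851 windows of the same length in the table, but since its spacing was read from these promoters the 2 values are no test of each other. The kB-type motif was in 2 of 9 windows and 1.75% of all, and the interferon-response type motif in 2 of 9 and 7.52%. A match is a description of letters only, and a missing match says nothing of what binds there. Near forms of the motifs were not searched. The B2m window holds gaaactgaaa and gggaaagtccc, and the H2-T23 window holds tttctctttc. These resemble the interferon-response and kB types but miss the patterns as written, so the contrast with H2-K1 and H2-D1 depends on the patterns chosen. Tap1 and Psmb9 are transcribed away from each other from RefSeq starts 226 bases apart, so that their windows overlap.

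The libraries held 18019819 to 24869454 reads on genes, of which 7.78% to 12.1% were mitochondrial. Members' values are given as FPKM computed from the counts, which divides them by the table's gene length and the TMM-scaled library size, which allows levels to be compared between genes, and each value is listed for mice A, B, C and D in that order. Casp1 read 1.37, 0.859, 0.874 and 0.944 FPKM in WT, 2.22, 2.58, 2.83 and 1.75 in RC/RC, and 0.255, 0.446, 0.444 and 0.707 in RC/RC:Casp1KO. All 4 knockout mice lay below all 8 others, and no library went against its label. The counts cover the whole gene, so reads outside the short deletion are counted in the knockout too. Pkd1 was not called in any of the 3 comparisons. Defining kidney transcripts were abundant in every library, the phosphate transporter Slc34a1 of the proximal tubule among them, with 1582 to 2221 FPKM in WT, 665 to 1835 in RC/RC and 1289 to 2196 in RC/RC:Casp1KO.

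In the knockout group mouse D stood apart. Its summed leukocyte markers (Ptprc, Coro1a and Laptm5) were 48.6 FPKM, against 19.3, 25.1 and 22.3 in the other 3 mice of that group, and values without it are given beside the results that change most when it is left out. Within WT and RC/RC:Casp1KO, mice A and B were closer to each other in their counts than to C and D, and C and D were likewise close. The chi-square per degree of freedom was 17.7 and 15.7 for the A and B pairs, 16.4 and 31.8 for the C and D pairs, and from 67.1 to 127 for the other pairs of those 2 groups. What separates the pairs is not given by the columns.

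The first comparison, RC/RC against WT, asks how the pathway differs between cystic and normal kidneys. Of the 10 genes, 7 were higher in RC/RC and none was lower by edgeR's quasi-likelihood test (Benjamini-Hochberg adjusted p under 0.05 over all 15243 genes tested), where 9.76% of all tested genes were called higher and 3.18% lower. The 7 were H2-K1, H2-D1, B2m, Tapbp, Psmb8, Psmb9 and Psmb10. The median log2 fold change over the 10 was 0.74, and over all tested genes -0.02. The second comparison, RC/RC:Casp1KO against RC/RC, asks what changes when caspase-1 is missing, and shares the RC/RC mice with the first. Of the 10, 4 were lower in the knockout, namely H2-D1, B2m, Tapbp and Psmb10, where 4.41% of all 15428 tested genes were called lower and 7.23% higher, with a median over the 10 of -0.52 beside -0.03 over all. Against WT, 0 of the 10 were called in the knockout by edgeR at an adjusted p under 0.05, where 2.03% of all 15346 tested genes were called, 1.13% higher and 0.893% lower. The 3 at an unadjusted p under 0.05 were H2-T23, Tap1 and Psmb9, and DESeq2's Wald test called 1, H2-T23, lower. By edgeR, 3343 of those 15346 genes had an unadjusted p under 0.05. It was 4457 of 15243 for RC/RC against WT and 4889 of 15428 for the knockout against RC/RC. The summed leukocyte markers moved alongside, at 17.3 ± 2.70 FPKM in WT, 47.2 ± 9.43 in RC/RC and 28.8 ± 13.4 in the knockout (SD, n = 4 each). The fibroblast sum was 37.0 ± 4.47, 160.1 ± 58.4 and 62.5 ± 15.2 FPKM and the proximal tubule sum 2334 ± 429, 1410 ± 625 and 2133 ± 463 in the same order. In RNA of kidney tissue, fewer cells of a type and less RNA per cell cannot be told apart, and the part of these cells in the result was not tested.

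**Figure D1:**
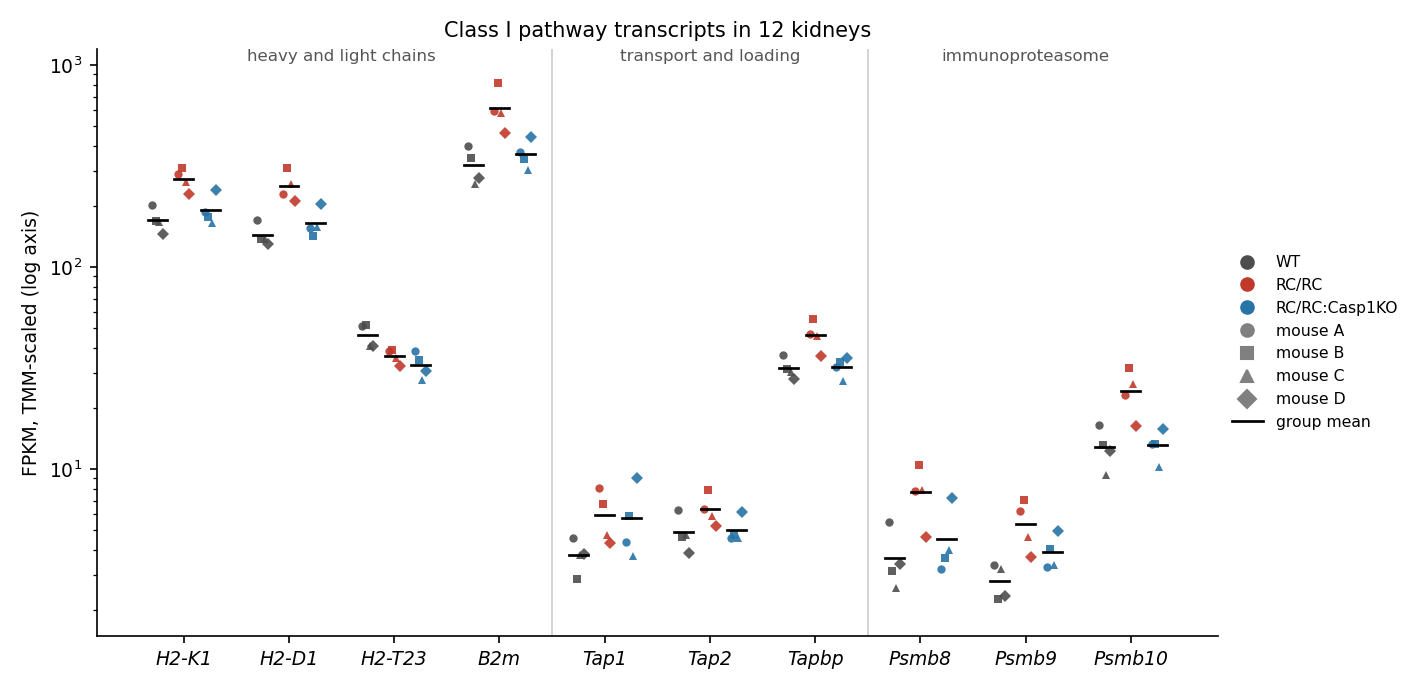
TMM-scaled FPKM (log axis) of the 10 genes in each of 12 kidneys, with 1 symbol per mouse and a bar at the group mean. The RC/RC mean lies above the WT mean for 9 genes, with no overlap of mice for 4 of them, H2-T23 runs the other way, and mouse D is the highest of its group in RC/RC:Casp1KO for 9 of the 10.

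These counts depended on single mice. Between RC/RC and WT the number called was 7 without WT mouse A, 2 without WT mouse B, 3 without WT mouse C and 1 without WT mouse D, and it was 4, 2, 4 and 8 without RC/RC mice A to D. Over all tested genes, 1971 were called with all mice. Leaving out WT mice A to D gave 1683, 1427, 1623 and 1162, and leaving out RC/RC mice A to D 1804, 1270, 1346 and 2440. H2-D1 was called in all 8 of these fits and B2m in 7. Between RC/RC:Casp1KO and RC/RC the number of the 10 called was 4, 0, 0 and 5 without RC/RC mice A to D, and 0, 0, 0 and 5 without knockout mice A to D. Here 1797 of all tested genes were called with all mice. Without RC/RC mice A to D the fits called 2789, 754, 438 and 1991, and without knockout mice A to D 606, 440, 810 and 1407. Where 0 of the 10 were called, 82.0% to 87.0% of all calls were higher in the knockout, against 62.1% with all mice. Between RC/RC:Casp1KO and WT 0 of the 10 were called in all 8 such fits, where 108 to 547 genes were called in all. With scaling by library size alone, 0 of the 10 and 993 of all 15428 tested genes were called between RC/RC:Casp1KO and RC/RC, the 4 genes having adjusted p-values of 0.0603 to 0.113 by edgeR. Every fitted difference of the 7 and of the 4 genes kept its sign in those fits.

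B2m was the most abundant of the 10. It lies at chr2:122147686-122153083 (plus strand, ENSMUSG00000060802). It read 400, 348, 259 and 276 FPKM in WT, 593, 818, 580 and 462 in RC/RC, and 371, 342, 302 and 442 in RC/RC:Casp1KO. All 4 RC/RC mice were above all WT and all knockout mice, while WT and knockout overlapped. The fitted difference was 0.94 ± 0.21 on the log2 scale (SE, 1.91-fold, edgeR adjusted p = 0.0173) for RC/RC against WT, and -0.76 ± 0.19 (adjusted p = 0.0361) for RC/RC:Casp1KO against RC/RC. Against WT the knockout differed by 0.19 ± 0.17 (adjusted p = 0.533), and by 0.080 without mouse D (adjusted p = 0.847). RC/RC and WT groups did not overlap, RC/RC higher, for 4 of the 10 (H2-K1, H2-D1, B2m and Psmb9), against 12.6% of all tested genes, and in either direction for 5 of the 10 against 19.6%.

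H2-K1 and H2-D1, the classical heavy chains that present peptides to CD8 T cells, followed B2m with smaller differences. H2-K1 (chr17:33996017-34000333, minus strand, ENSMUSG00000061232) read 203, 170, 168 and 146 FPKM in WT, 289, 309, 263 and 231 in RC/RC, and 187, 177, 165 and 241 in RC/RC:Casp1KO. RC/RC stood clear of WT by 0.67 ± 0.15 on the log2 scale (adjusted p = 0.0175), and mouse D of the knockout reached into the RC/RC range. The knockout was 0.51 log2 units below RC/RC (-0.51 ± 0.15, adjusted p = 0.0574), which missed the threshold with all mice and passed without mouse D (-0.63, adjusted p = 0.0360). H2-D1 (chr17:35262730-35267499, plus strand, ENSMUSG00000073411) read 171, 138, 138 and 131 FPKM in WT, 231, 308, 258 and 213 in RC/RC, and 157, 143, 159 and 205 in RC/RC:Casp1KO. Its RC/RC mice lay above both other groups without overlap, by 0.81 ± 0.16 over WT (adjusted p = 0.00989), and the knockout was lower than RC/RC (-0.62 ± 0.16, adjusted p = 0.0409). The groups were clear of each other between RC/RC:Casp1KO and RC/RC, knockout lower, for 4 of the 10 (H2-D1, B2m, Tapbp and Psmb10), against 8.65% of all tested genes lower and 20.4% in either direction. Reads of these 2 genes can be hard to tell apart. Stretches of 50 bases found letter for letter in transcripts of another gene covered 31.4% of the H2-K1 transcript and 37.1% of the H2-D1 transcript in GENCODE vM39, so the split of reads between them is uncertain.

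Of the peptide transporter and its partner tapasin, Tapbp was called by edgeR and Tap1 and Tap2 were not, and whether the 3 differ from each other was not tested. Tapbp (chr17:33915899-33929288, plus strand, ENSMUSG00000024308) read 36.9, 31.5, 30.3 and 28.1 FPKM in WT, 46.5, 55.2, 45.9 and 36.5 in RC/RC, and 32.1, 33.9, 27.3 and 35.7 in RC/RC:Casp1KO. RC/RC mouse D lay just within the WT range, and every knockout mouse was below every RC/RC mouse. The difference was 0.54 ± 0.15 for RC/RC against WT (adjusted p = 0.0416) and -0.52 ± 0.14 for the knockout against RC/RC (adjusted p = 0.0427, and -0.57 with adjusted p = 0.0580 without mouse D). The gene overlaps Zbtb22 on the same strand over 3421 bases in the table, and Zbtb22 was counted at 23.8% of the Tapbp reads.

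Tap1 (chr17:34187553-34197225, plus strand, ENSMUSG00000037321) was near its RC/RC level in the knockout on average. It read 4.58, 2.86, 3.76 and 3.79 FPKM in WT, 8.06, 6.74, 4.75 and 4.31 in RC/RC, and 4.37, 5.89, 3.73 and 9.05 in RC/RC:Casp1KO. The groups overlapped, and knockout mouse D held the highest value of all 12. No comparison passed edgeR's test, while DESeq2's Wald test called Tap1 higher in RC/RC than in WT (0.65, adjusted p = 0.0435). The RC/RC against WT difference was 0.67 ± 0.22 (adjusted p = 0.0782), and that of the knockout against RC/RC was -0.06 ± 0.29 (adjusted p = 0.907), or -0.35 without mouse D. Against WT the knockout gave 0.63 ± 0.27 with mouse D (adjusted p = 0.222) and 0.32 ± 0.20 without it (adjusted p = 0.480). Tap2 (chr17:34203527-34216321, plus strand, ENSMUSG00000024339) read from 3.86 to 6.30 FPKM in WT, from 5.23 to 7.94 in RC/RC and from 4.56 to 6.15 in the knockout. Its differences were 0.38 ± 0.18 (adjusted p = 0.186) and -0.35 ± 0.15 (adjusted p = 0.143). Tap1 and Psmb9 share 212 bases on opposite strands in the table, and the strand setting of the counting is not given in the sources used here, so reads there cannot be assigned to one of them.

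The 3 immunoproteasome subunits were all higher in RC/RC than in WT, while the constitutive core was not called. Psmb8 (chr17:34197721-34201454, plus strand, ENSMUSG00000024338), the chymotrypsin-like inducible subunit, read 5.50, 3.15, 2.58 and 3.38 FPKM in WT, 7.84, 10.6, 7.91 and 4.61 in RC/RC, and 3.22, 3.62, 3.98 and 7.17 in RC/RC:Casp1KO. WT mouse A overlapped the lowest RC/RC mouse, and knockout mouse D reached the RC/RC range while the other 3 stayed within that of WT. The difference was 1.08 ± 0.29 for RC/RC against WT (2.11-fold, adjusted p = 0.0402). For the knockout against RC/RC it was -0.79 ± 0.30 with all mice (adjusted p = 0.108) and -1.10 without mouse D (adjusted p = 0.0353).

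Psmb9 (chr17:34181988-34187764, minus strand, ENSMUSG00000096727), which takes the place of Psmb6, read 3.35, 2.28, 3.19 and 2.35 FPKM in WT, 6.18, 7.03, 4.63 and 3.67 in RC/RC, and 3.30, 4.02, 3.34 and 4.96 in RC/RC:Casp1KO. RC/RC lay above WT without overlap (0.94 ± 0.23, adjusted p = 0.0256), and the knockout lay between, differing from neither group past the threshold (-0.47 ± 0.21 against RC/RC, adjusted p = 0.166, and 0.49 ± 0.19 against WT, adjusted p = 0.191). Without mouse D these were -0.60 and 0.35 (adjusted p = 0.123 and 0.407). Psmb10 (chr8:105935728-105938392, minus strand, ENSMUSG00000031897), the trypsin-like inducible subunit, was the most abundant of the 3. It read 16.5, 13.2, 9.35 and 12.3 FPKM in WT, 23.4, 31.6, 26.5 and 16.3 in RC/RC, and 13.3, 13.3, 10.2 and 15.9 in RC/RC:Casp1KO. Every knockout mouse was below every RC/RC mouse. Psmb10 was higher in RC/RC than in WT (0.93 ± 0.22, adjusted p = 0.0239), lower in the knockout than in RC/RC (-0.90 ± 0.20, adjusted p = 0.0259), and 0.05 ± 0.19 from WT in the knockout (adjusted p = 0.905).

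**Figure D2:**
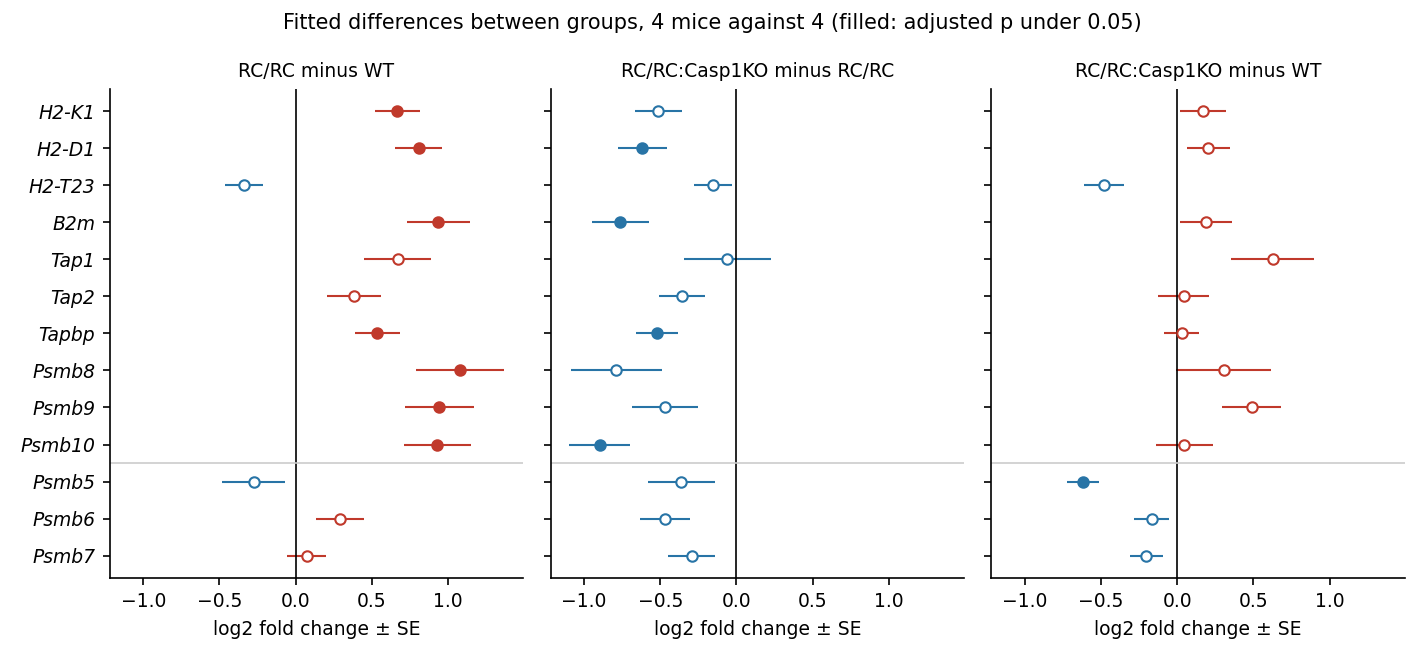
Fitted log2 fold change (x axis) with its standard error for the 10 genes and for Psmb5, Psmb6 and Psmb7 in the 3 comparisons of 4 mice against 4, filled where the adjusted p was under 0.05. There are 7 filled points right of 0 among the 10 genes in the first panel, 4 left of 0 in the second and none in the third, where Psmb5 alone is filled.

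Of the 14 constitutive subunits of the 20S core, none was called between RC/RC and WT by edgeR (1 at an unadjusted p under 0.05), with log2 fold changes from -0.27 to 0.31. Between the knockout and RC/RC, Psmb2, a non-catalytic subunit named after its values were seen, was the 1 called (-0.43 ± 0.12, adjusted p = 0.0453), while all 14 had negative values (-0.47 to -0.15), with a median of -0.37 beside -0.03 over all tested genes and 9 at an unadjusted p under 0.05. Of all 15428 tested genes, 4889 had an unadjusted p under 0.05. Without knockout mouse D, 0 of the 14 were called by edgeR and 5 had an unadjusted p under 0.05. Within each kidney the level of an inducible subunit was set against that of the constitutive subunit it replaces, where the scaling cancels. Psmb8 was 3.60%, 2.30%, 1.77% and 2.49% of Psmb5 in WT, 11.3%, 8.36%, 5.34% and 3.57% in RC/RC, and 3.81%, 3.93%, 3.61% and 8.51% in RC/RC:Casp1KO. The knockout values all lay above the WT values, the nearest at 3.61% against 3.60%, while RC/RC overlapped both. Psmb5 itself was lower in the knockout than in WT (-0.62 ± 0.10, adjusted p = 0.0250), at 92.8 ± 12.2 FPKM against 143 ± 7.996 (SD, n = 4 each, and -0.58 with adjusted p = 0.0767 without mouse D), and it is the denominator of that ratio. Psmb10 ran from 9.23% to 16.5% of Psmb7 in WT, from 13.9% to 31.3% in RC/RC and from 9.77% to 18.8% in the knockout. Psmb9 ran from 1.87% to 3.14%, from 2.90% to 6.02% and from 2.92% to 5.64% of Psmb6. These 3 ratios were tested together with B2m to H2-K1 plus H2-D1, Tap1 to Tap2 and Psmb9 to Tap1. Over the 18 exact permutation tests of 6 ratios in 3 comparisons (two-sided, 4 mice against 4, smallest possible p = 0.0286), none passed after Benjamini-Hochberg adjustment, the lowest adjusted p being 0.229. A lone ratio at the smallest possible p could not have passed among 18 tests, so this does not show that the ratios were alike. In every kidney each inducible subunit was below its constitutive partner, the group means running from 2.54% ± 0.771 (Psmb8 over Psmb5 in WT, SD, n = 4) to 23.5% ± 7.51 (Psmb10 over Psmb7 in RC/RC).

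**Figure D3:**
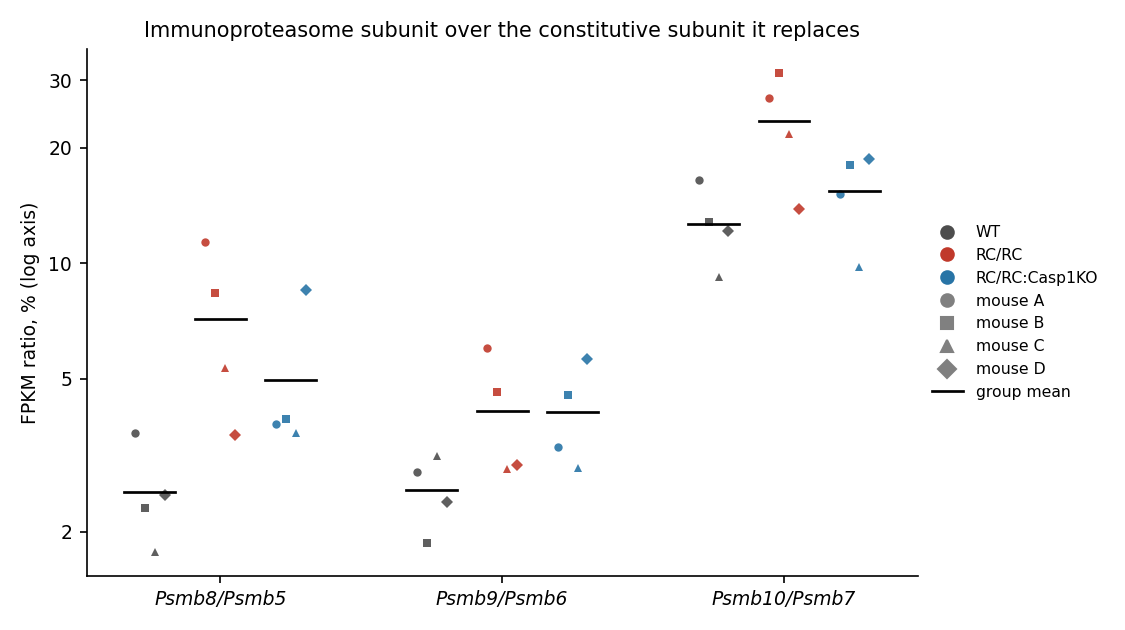
FPKM of an inducible subunit as a percent of the constitutive subunit it replaces (log axis), 1 symbol per mouse and a bar at the group mean. RC/RC mice spread from 3.57% to 11.3% for Psmb8 over Psmb5, and knockout mouse D stands at 8.51% above the other 3 of its group.

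Interferon is also known to raise the cap that opens the proteasome. Of 5 activator and assembly genes, Psme1 and Psme2, which encode the PA28 cap, were higher in RC/RC than in WT (0.74 ± 0.18, adjusted p = 0.0267, and 0.56 ± 0.15, adjusted p = 0.0392) and lower in the knockout than in RC/RC (-0.62 ± 0.15, adjusted p = 0.0341, and -0.53 ± 0.13, adjusted p = 0.0345, the latter 0.0623 without mouse D). Psme3, Psme4 and Pomp were not called in any comparison. Among 7 other loading and trimming genes, the chaperone Canx was lower (-0.52 ± 0.13, adjusted p = 0.0294) and the editor Tapbpl higher (0.41 ± 0.12, adjusted p = 0.0465) in RC/RC than in WT, the other 5, Calr, Pdia3 and Erap1 among them, were not called, and 0 of the 7 were called in either knockout comparison.

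H2-T23, the mouse Qa-1 molecule that shows leader peptides of other class I chains to CD94/NKG2 receptors, was the 1 of the 10 with a negative value for RC/RC against WT. It lies at chr17:36029773-36032855 (minus strand, ENSMUSG00000067212). It read 51.2, 51.7, 40.8 and 40.6 FPKM in WT, 38.5, 39.0, 35.7 and 32.6 in RC/RC, and 38.7, 34.7, 27.8 and 30.6 in RC/RC:Casp1KO. Every WT mouse was above every mouse of the other 2 groups, a pattern that held for 1 of the 10 genes in each comparison with WT, against 7.05% of all genes lower without overlap in RC/RC and 6.5% in the knockout. Of the 10, 0 were higher without overlap in the knockout than in WT, against 7.41% of all genes. The edgeR test did not call it (-0.34 ± 0.12, adjusted p = 0.108 for RC/RC, and -0.48 ± 0.13, adjusted p = 0.102 for the knockout against WT). Between the knockout and RC/RC its value was -0.15 ± 0.12 (adjusted p = 0.413), of the same sign as the other 9. As a share of H2-K1 in the same kidney, a ratio chosen after its values were seen and given with no test, H2-T23 stood at 24.2% to 30.4% in WT, 12.6% to 14.1% in RC/RC and 12.7% to 20.7% in the knockout. Over the 12 mice its log2 level had a Pearson correlation of -0.144 with the mean of the other 9 genes, where each of the other 9 had 0.665 (Tap1) to 0.969 (Tapbp). These mice share the same scaling and group structure, and the values are a description. After group means were removed H2-T23 stood at 0.415. Stretches of 50 bases shared with other genes covered 47.5% of its transcript, so its count is uncertain too.

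The other heavy chains were taken as a list of 21 genes, of which 18 were in the table and 11 passed the count filter for RC/RC against WT. Of these 11, 5 were called higher (H2-Q4, H2-Q7, H2-T24, H2-Bl and H2-T10) and 1 lower (H2-T22) in RC/RC, and 10 of 11 had an unadjusted p under 0.05. Among all 15243 tested genes, 4457 had an unadjusted p under 0.05. Against WT the knockout had 4 higher (H2-Q7, H2-T24, H2-Bl and H2-T10) and again H2-T22 lower. Without knockout mouse D, H2-T10 was the 1 still called against WT (1.92, adjusted p = 0.0183), with adjusted p-values of 0.0593 to 0.0804 for the other 4, and 9 of 11 had an unadjusted p under 0.05. Between the knockout and RC/RC 0 of 11 were called by edgeR, 1 of them at an unadjusted p under 0.05. The most abundant, H2-Q6, read 28.7 ± 6.48 FPKM in WT, 46.9 ± 12.9 in RC/RC and 42.4 ± 3.20 in the knockout (SD, n = 4 each) and was not called. The largest and smallest fold changes between RC/RC and WT belonged to H2-T10 and H2-T22.

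H2-T10, at 15 to 173 reads per library, read 0.366, 0.211, 0.326 and 0.306 FPKM in WT, 1.95, 1.73, 1.63 and 1.43 in RC/RC, and 1.05, 1.35, 1.03 and 2.23 in RC/RC:Casp1KO. Both mutant groups stood clear of WT, by 2.47 ± 0.23 (5.56-fold, adjusted p = 0.000385) and 2.23 ± 0.32 (4.68-fold, adjusted p = 0.0131) on the log2 scale. H2-T22 read 25.1, 24.5, 26.3 and 27.4 FPKM in WT, 19.1, 19.7, 19.97 and 18.3 in RC/RC, and 19.8, 18.2, 17.7 and 18.01 in RC/RC:Casp1KO. The 8 mutant mice lay within 17.7 to 19.97 and below all WT mice, with differences of -0.42 ± 0.09 (adjusted p = 0.0125) and -0.48 ± 0.07 (adjusted p = 0.0171). The transcripts of these 2 genes are near copies, 67.4% of that of H2-T22 lying in 50-base stretches also found in H2-T10. H2-Q7, named after its values were seen, read 8.0 ± 1.63 FPKM in WT, 15.1 ± 4.42 in RC/RC and 15.2 ± 2.66 in the knockout (SD, n = 4 each), and differed between the last 2 by -0.00 ± 0.20 (adjusted p = 0.997). Such stretches shared with other genes covered 50.1% of the H2-Q7 transcript and 65.5% of that of H2-Q6, so their counts are uncertain too.

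**Figure D4:**
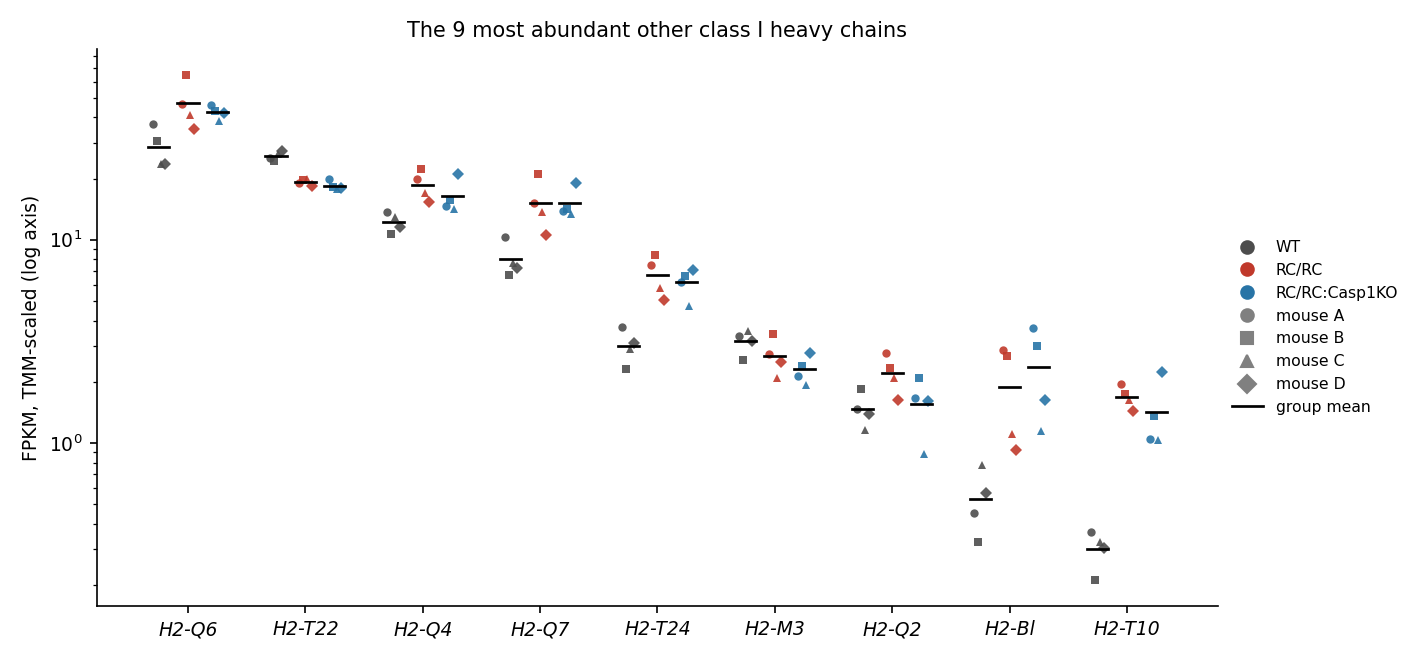
TMM-scaled FPKM (log axis) of the 9 most abundant other class I heavy chains, 1 symbol per mouse and a bar at the group mean. H2-T22 is lower and H2-T10, H2-T24, H2-Bl and H2-Q7 are higher in both mutant groups than in WT.

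The make-up of heavy chain transcripts can be read from the summed FPKM of 21 heavy chains, the 3 among the 10 genes and the 18 others in the table. Of this sum, H2-D1 made 32.4% ± 0.733 in WT, 37.2% ± 2.16 in RC/RC and 33.2% ± 2.13 in the knockout, and H2-T23 made 10.3% ± 0.993, 5.41% ± 0.403 and 6.68% ± 1.24 (SD, n = 4 each). The sum itself was 446 ± 53.3, 678 ± 97.1 and 499 ± 66.6 FPKM.

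Of the 10 genes, 8 lie on chromosome 17 in the H2 complex or beside it, 9.32 to 11.4 Mb from Pkd1, whose mutant allele both RC groups carry, while B2m lies on chromosome 2 and Psmb10 on chromosome 8. Among genes that start between 20 and 40 Mb on chromosome 17, a window chosen after the data were seen, 7.77% of 386 were called between the knockout and WT, against 1.88% of all other genes and 0.840% of the rest of chromosome 17. The window holds the H2 genes given above, and without them and the other genes of the lists it was 6.15% of 358. The shares are a description. Among 121 windows of 20 Mb with at least 50 tested genes, that share ranked 5, and the window's shares in the comparisons of RC/RC with WT and of the knockout with RC/RC ranked 16 and 26. For RC/RC against WT it was 17.6% against 12.8%, and for the knockout against RC/RC, which share the allele, 13.9% against 11.6%, or 14.1% and 14.2% for the window without those genes. For the 8 genes on chromosome 17, an effect of the Pkd1 allele and one of DNA linked to it cannot be told apart in comparisons with WT.

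Regulators and other interferon-responsive genes were counted from lists of the same kind. Of 20 genes of interferon signalling and class I regulation, 18 were tested between RC/RC and WT and 8 were higher, among them the transcription factors Irf1 (1.00 ± 0.21, adjusted p = 0.0131) and Irf8 (1.19 ± 0.15, adjusted p = 0.00167), Irf9, both subunits of the interferon gamma receptor (Ifngr1 and Ifngr2) and of the type I interferon receptor (Ifnar1 and Ifnar2), and Ciita, the class II transactivator. Ifngr1 (-0.70 ± 0.16, adjusted p = 0.0289) and Ifngr2 (-0.65 ± 0.13, adjusted p = 0.0179) were the 2 lower in the knockout than in RC/RC, and Ciita was the 1 higher in the knockout than in WT (1.68 ± 0.34, adjusted p = 0.0449, and 1.27 with adjusted p = 0.0512 without mouse D). Nlrc5, the class I transactivator, read 0.995, 0.555, 1.41 and 1.26 FPKM in WT, 1.84, 1.81, 1.07 and 0.988 in RC/RC, and 1.51, 1.61, 1.34 and 3.09 in the knockout. The groups overlapped in all 3 comparisons and Nlrc5 was not called in any, the RC/RC against WT difference being 0.43 ± 0.32 (adjusted p = 0.387). The knockout differed from WT by 0.84 ± 0.34 with mouse D (adjusted p = 0.201) and 0.49 ± 0.29 without it (adjusted p = 0.445). Of the interferon genes, Ifnb1 and Ifng were examined, with Ifnb1 at 0 counts in 12 of 12 libraries, where a count of 0 allows an expected count of up to 3 per library, and Ifng at 0 to 4 counts.

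Of 18 interferon-stimulated genes, all tested, 8 were higher in RC/RC than in WT and the median was 0.95, beside -0.02 over all tested genes. Isg15, a ubiquitin-like protein, had the largest difference (1.61 ± 0.34, adjusted p = 0.0141) and read 5.29, 2.83, 4.26 and 3.05 FPKM in WT, 11.1, 18.7, 11.01 and 6.41 in RC/RC, and 4.75, 6.81, 3.45 and 7.49 in the knockout. Rsad2 had the smallest (0.11, adjusted p = 0.611). Between the knockout and RC/RC 17 of the 18 had negative values, the median was -0.59 beside -0.03 over all, and 9 had an unadjusted p under 0.05, while 1, Bst2, the membrane protein tetherin, was called (-1.17 ± 0.30, adjusted p = 0.0399). Over all 15428 tested genes, 4889 had an unadjusted p under 0.05. Without mouse D 3 of the 18 were called lower. None was called between the knockout and WT by edgeR (2 at an unadjusted p under 0.05). Bst2 was also the most abundant of the list, at 25.1 ± 9.49, 60.4 ± 28.0 and 27.0 ± 6.92 FPKM (SD, n = 4 each).

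MHC class II genes, which present to CD4 T cells and are read mostly in professional antigen-presenting cells, were also counted. Of 8, 7 were tested and 6 were higher in RC/RC than in WT. None of 8 was called between the knockout and RC/RC by edgeR (1 at an unadjusted p under 0.05), and 3 of 7 were higher in the knockout than in WT. Cd74, the invariant chain and the most abundant, read 264, 187, 160 and 160 FPKM in WT, 602, 559, 539 and 448 in RC/RC, and 380, 360, 350 and 617 in the knockout. The 2 mutant groups stood above WT without overlap (1.48 ± 0.19, adjusted p = 0.00174, and 1.15 ± 0.23, adjusted p = 0.0458), and the knockout against RC/RC gave -0.34 ± 0.20 (adjusted p = 0.268). Without mouse D the last was -0.56 ± 0.15 (adjusted p = 0.0517) and the knockout against WT 0.92 ± 0.19 (adjusted p = 0.0815). Without it 2 of 8 class II genes were lower in the knockout than in RC/RC and 1 of 7 higher than in WT. Of 6 class I-like molecules, Fcgrt, the neonatal Fc receptor that pairs with B2m, was the 1 called, and it was lower: 137, 131, 137 and 140 FPKM in WT, 88.9, 89.6, 91.2 and 122 in RC/RC, and 75.8, 73.2, 77.6 and 75.1 in the knockout. All RC/RC mice lay below WT and all knockout mice below RC/RC, with differences from WT of -0.48 ± 0.13 (adjusted p = 0.0439) and -0.85 ± 0.08 (adjusted p = 0.000883). Between the knockout and RC/RC Fcgrt was not called by edgeR (-0.39 ± 0.13, adjusted p = 0.0858).

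Markers of several immune classes and of fibroblasts were higher in RC/RC than in WT, and fewer were called in the knockout comparisons. The 3 leukocyte markers were all higher in RC/RC than in WT, and their summed level was 21.3, 16.0, 16.3 and 15.6 FPKM in WT, 50.7, 57.7, 44.9 and 35.4 in RC/RC, and 19.3, 25.1, 22.3 and 48.6 in RC/RC:Casp1KO. RC/RC stood clear of WT, and the knockout kidneys other than mouse D stood between 19.3 and 25.1, below all RC/RC mice. Coro1a was the most abundant, and none was at 0. Between RC/RC and WT 4 of 5 analysed macrophage, 4 of 6 dendritic cell, 5 of 6 T cell and all 3 tested of 4 B cell markers were higher, as were 4 of 4 fibroblast markers. The most abundant of each were C1qa, Zbtb46, Trac, Cd79a and Dcn, and Pax5 was at 0 in some mice. Of 3 NK cell markers 0 were abundant enough to test, their sum running from 0.191 to 0.642 FPKM with Ncr1 the most abundant, and none of 3 tested neutrophil markers (of 4, S100a8 and Ly6g at 0 in some mice) was called. None of 4 endothelial and none of 4 proximal tubule markers was called between RC/RC and WT by edgeR (2 and 3 at an unadjusted p under 0.05), while between the knockout and RC/RC the fibroblast genes Col1a1 (-1.87 ± 0.47, adjusted p = 0.0367) and Dcn (-1.46 ± 0.23, adjusted p = 0.00880) and the macrophage gene C1qa (-1.22 ± 0.34, adjusted p = 0.0492) were lower and the proximal tubule gene Lrp2 was higher (1.52 ± 0.28, adjusted p = 0.0144). With all mice, 0 of 3 leukocyte, 1 of 5 macrophage and 2 of 4 fibroblast markers were lower in the knockout than in RC/RC. None of 6 dendritic cell, 6 T cell and 3 tested B cell markers was called. Without mouse D, 2 of 3 leukocyte, 3 of 5 macrophage, 1 of 6 dendritic cell, 1 of 6 T cell and 3 of 4 fibroblast markers were lower in the knockout than in RC/RC, Coro1a among them (-1.19, adjusted p = 0.0150). Mouse D was set apart by its high leukocyte sum, so lower leukocyte markers without it follow in part from that choice. Of 3 podocyte markers 1, Nphs1, was lower in RC/RC than in WT (-0.62 ± 0.16, adjusted p = 0.0372), and neither tested of 3 collecting duct markers was called, with a sum of 244 ± 80.8 FPKM in WT, 455 ± 147 in RC/RC and 305 ± 52.1 in the knockout (SD, n = 4 each). The part of these cells in the class I result was not tested.

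**Figure D5:**
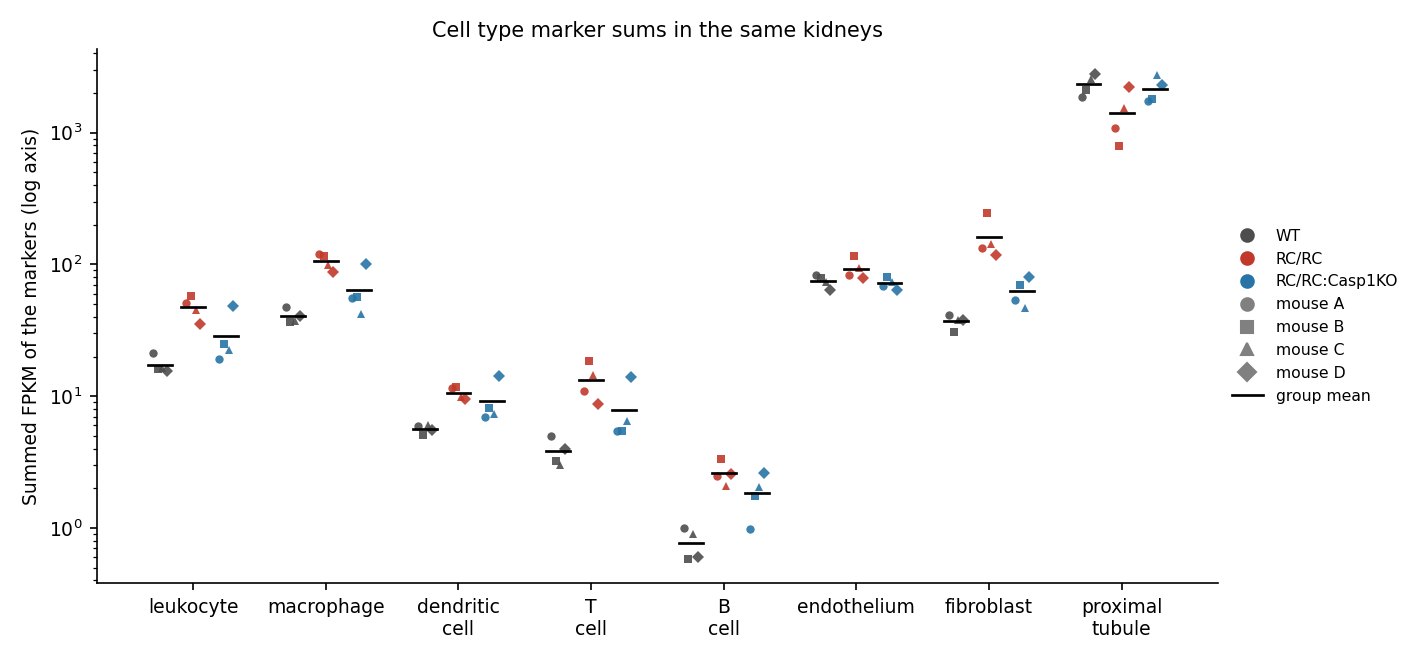
Summed TMM-scaled FPKM of marker genes of 8 cell types (log axis), 1 symbol per mouse and a bar at the group mean. The leukocyte, macrophage, T cell, B cell and fibroblast sums of all RC/RC mice lie above those of all WT mice, and knockout mouse D stands with RC/RC for the leukocyte classes.

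Receptors and effectors that read class I molecules were sparse. Of 10 such genes 6 were abundant enough to test between RC/RC and WT, and 1, Klrk1 (NKG2D), was higher, at 0.200 ± 0.0462 FPKM in WT and 0.559 ± 0.0807 in RC/RC (SD, n = 4 each, adjusted p = 0.00833). Cd8a was not called (0.80, adjusted p = 0.190), and no gene of the list was called in either knockout comparison by edgeR.

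Across the 12 mice, the genes outside the 10 whose log2 CPM was most like the mean z-score of the 10 were Rcn1, Bgn, Sdc3, Efemp2 and Bst2, with Pearson correlations of 0.980, 0.977, 0.976, 0.976 and 0.975 among 14165 genes with a mean of at least 1 CPM. Bgn encodes biglycan and Efemp2 a fibulin of elastic fibres, both of the extracellular matrix. With group means removed the 5 kept correlations of 0.941 to 0.963. The mice share scaling and group, and the values are a description.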

How the data were processed

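Poly(A) RNA of kidney tissue from 12 mice, 1 library each and 4 per group, was sequenced at Novogene. The authors deposited 1 table of raw read counts per gene. The submitters' processing notes name CASAVA 1.8, STAR and build mm10, and the counting tool, annotation release and strand setting are not given in the sources used here. The deposited table's other columns hold FPKM values and the authors' own comparisons, which were not used. The 12 count columns carry the group but no sex or replicate number.

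Counts were tested in 3 pairwise fits with edgeR 4.0.16 (R 4.3.3) after filterByExpr and TMM scaling, by the quasi-likelihood test with Benjamini-Hochberg adjustment over all genes tested and a threshold of 0.05. DESeq2 1.42.0 was an alternative, as were other scalings, filters and leaving out each mouse. FPKM used the table's gene lengths. Ratios were tested by exact permutation with scipy 1.17.1. Where a symbol had several rows, the row with most counts was used.

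Depth was 18019819 to 24869454 reads on genes, and the members held 98 (Psmb8) to 14186 (H2-K1) reads per library. Replicates of a group differed by more than sampling noise in all 18 pairs, with chi-square statistics 15.7 to 128 times their degrees of freedom. Limits from counts cover counting error only. The labels name separate mice, so p-values measure spread between animals.

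The members and the lists, 170 genes in all with 166 in the table, were chosen with earlier results of these data known. H2-Q8, H2-Q9, H2-T9 and Adgre1 were not analysed here. Genes named were the 10 members, Casp1, Pkd1, Psmb5, Psmb6 and Psmb7, the most abundant gene of each list and that with its largest and smallest difference between RC/RC and WT, and the 5 genes most like the members. Other list genes named were chosen after their values were seen.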

Additional observations from a re-analysis of the deposited data

Results flagged for a closer look

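The values of 3 items stood far from the other 3 mice of their group by Dixon's test at the 95% level, among 51 groups of 4 tested, where chance flags about 1 in 20 groups. Tap2 read 6.15 FPKM in RC/RC:Casp1KO mouse D, and the nearest mouse of that group read 4.72. The same mouse had a Psmb8 to Psmb5 ratio of 0.0851 (8.51%), with the nearest at 0.0393. In RC/RC, mouse A had a Tap1 to Tap2 ratio of 1.26, with the nearest at 0.849.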

How the results depend on the processing

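No paired analysis was possible because the columns of the count table carry no replicate number. Between RC/RC and WT, the number of the 10 genes called stayed within 1.5 times under all 6 other settings, and every one of their fitted differences kept its sign. DESeq2 called more genes, 2988, 3175 and 1406 in the 3 comparisons in the order given, and also called Tap1 higher in RC/RC (0.65, adjusted p = 0.0435), H2-K1 lower in the knockout than in RC/RC (adjusted p = 0.00904) and 1 of the 10, H2-T23, lower in the knockout than in WT (-0.50). Scaling by library size alone left 0 of the 10 called between the knockout and RC/RC, with 993 genes called, and moved the share of higher calls from 75.4% to 86.1%, from 62.1% to 82.0% and from 55.9% to 79.8%. It moved the median of all genes by 0.13 on the log2 scale between the knockout and WT. A filter of at least 10 counts in every mouse gave 167 genes called between the knockout and WT. The cause of these shifts was not tested. Leaving out 1 mouse at a time gave 1 to 8 of the 10 genes called between RC/RC and WT, 0 to 5 between the knockout and RC/RC, and 0 to 0 between the knockout and WT, with 1162 to 2440, 438 to 2789 and 108 to 547 genes called in all. Differences near 0 changed sign in such fits. These were Tap1 between the knockout and RC/RC (-0.35 to 0.10), and between the knockout and WT Tap2 (-0.076 to 0.19), Tapbp (-0.027 to 0.11), Psmb8 (-0.016 to 0.57) and Psmb10 (-0.10 to 0.19). The log2 ratios that changed sign were Psmb9 to Psmb6 between the knockout and RC/RC (-0.16 to 0.21), and B2m to H2-K1 plus H2-D1 (-0.067 to 0.073) and Psmb9 to Tap1 (-0.18 to 0.054) between the knockout and WT. With 4 mice a group, members under about 1000 reads, Tap1, Tap2 and the 3 inducible subunits, had standard errors of 0.15 to 0.31.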
